A study of Mus musculus with 48 samples.

Results

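The genes described here encode the eukaryotic translation initiation factors, the proteins that bring the ribosome to the start codon of an mRNA, together with the kinases and binding proteins that restrain them. Members were all rows of the count table whose gene symbol begins with Eif followed by a digit from 1 to 6, without the Y-linked Eif2s3y and without pseudogenes. The rule found 58 of the 20171 genes in the table. It uses the name alone and no measured value.

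In the first step of initiation eIF2 carries the initiator tRNA to the small ribosomal subunit, eIF2B reloads eIF2 with GTP, and stress kinases stop the cycle by phosphorylating the alpha subunit of eIF2. The subunits of eIF3 form the scaffold on which this complex is built, while eIF4E binds the mRNA cap, eIF4G bridges cap and ribosome, and eIF4A unwinds the leader. Tnrc6a is a GW182 protein, the partner through which Argonaute proteins bring deadenylase and decapping enzymes to microRNA targets, and the cap-binding competitor eIF4E2, the 4E-transporter Eif4enif1 and the helicase Ddx6 are known to work with that machinery.

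The study isolated RNA bound to Tnrc6a from mouse embryonic stem cells (129S6/SvEvTac background) that carry yGlob and the GFP_5xT71BS reporter and stably express FLAG-Cas9 linked to blasticidin resistance. The first group was the untagged parental line, and the second, HA-AVI-Tnrc6a, had an HA-AVI tag on Tnrc6a. The third and the fourth were HA-AVI-Tnrc6a cells labelled Ago2-/- and HA-AVI-Tnrc6a cells labelled Upf1-/-, lacking by label the Argonaute slicer Ago2 or the nonsense-mediated decay helicase Upf1. All groups share the reporter and Cas9, and the labels do not say how many clones stand behind a genotype. Each was sampled as total RNA of the lysate (input) and as RNA eluted from magnetic beads with antibody to HA (IP), 6 libraries for each of the 8 combinations of genotype and fraction, 48 in all. The labels place them in experiments 3 and 4, in triplicate 10 cm dishes. The column names number the libraries from 1 to 6 without naming the experiment, so numbers 1 to 3 and numbers 4 to 6 were kept apart as 2 sets; each comparison was formed within a set, and the mean over both sets is reported. Because nothing ties the libraries to separate clones, the p-values measure the spread between dishes.

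Totals ran from 11471544 to 19595405 counts in numbers 1 to 3 and from 25724085 to 73845953 in numbers 4 to 6. Levels are given as CPM, the count of a gene scaled to the normalised size of its library. Tnrc6a mRNA itself was at 8841 to 34244 CPM in the HA-Tnrc6a IPs against 56.6 to 105 CPM in the untagged IPs. Ago2 mRNA was lower in Ago2-/- inputs than in HA-Tnrc6a inputs, at 92.8 to 136 CPM against 205 to 323 CPM, a difference of -1.21 ± 0.027 (edgeR, adjusted p = 6.3e-34). Upf1 mRNA was not lower in the inputs labelled Upf1-/- but higher, 122 to 142 CPM against 74.4 to 99.6 CPM in HA-Tnrc6a inputs, so every direction drawn from those libraries below rests on the label alone. The counts do not show which part of either gene was changed. All 10 embryonic stem cell markers were present, with summed levels of 7388 to 8905 CPM per input, whereas 3 of 7 fibroblast markers were in the table and summed to 20.5 to 36.7 CPM. The 6 endoderm markers summed to 6.84 to 7.86 CPM in Ago2-/- inputs, 9.44 to 60.3 CPM in inputs labelled Upf1-/- and 11.1 to 34.6 CPM in the other inputs, and the 4 neural markers to 109 to 119, 51.5 to 68.3 and 82.5 to 108 CPM in the same order. The 4 mesoderm markers summed to 4.96 to 16.7 CPM. The part of these levels in the differences below was not tested.

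Initiation factor mRNAs spanned a wide range in the inputs of HA-Tnrc6a cells. Only the levels in this paragraph are divided by gene length, so that genes can be set beside each other. Eif5a, which encodes the factor that helps ribosomes through stalling sequences, was the most abundant at a median of 607 CPM per kilobase, followed by the helicase gene Eif4a1 at 398 and by the eIF3 subunit gene Eif3h at 179. The 14 eIF3 genes lay between 13.4 (Eif3j1) and that value. Among cap-binding factors Eif4e, the canonical one, stood at 32.0 and its competitor Eif4e2 at 43.5 CPM per kilobase. The eIF2 alpha kinase genes were low, from 2.72 for Eif2ak3 (PERK) to 15.4 for Eif2ak1 (HRI). At the bottom, Eif4e3, Eif4a3l1, Eif4a3l2, Eif1ad3, Eif1ad7 and Eif1ad8 were each under 1 CPM per kilobase, and several of these are close copies of other genes between which reads may be split. Eif1ad8 failed the filter on low counts in the comparisons of inputs labelled Upf1-/- or untagged with HA-Tnrc6a, leaving 57 members there against 58 in the others.

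Recovery with the tag, the first comparison, asks which mRNAs came down with Tnrc6a: it is the log2 ratio of IP to input in HA-Tnrc6a cells less the same ratio in untagged cells. All differences here and below are log2 values ± SE from 6 libraries per group, tested by edgeR's quasi-likelihood test with Benjamini-Hochberg adjustment over all genes tested. Of the 58 initiation factor genes 12 were higher and 28 lower past an adjusted p of 0.05, where 29.8% of the 19993 genes tested were higher and 32.2% lower, so that 20.7% of members stood against the first share and 48.3% against the second. Those that rose included 4 of the 6 cap-binding and scaffold genes and both cofactors of the eIF4A helicase, Eif4b and Eif4h, and Eif4h, Eif5a2, Eif2b2 and Eif4e2 rose by about the same amount, near 1 on the log2 scale. Those that fell included 11 of the 14 eIF3 subunits, 4 of the 5 eIF2B subunits and both Eif2s1 and Eif2s2. The median over the members was -0.28, against -0.10 over all genes tested, and 54 of 58 had the same sign in both sets of libraries. A rise past 2-fold was seen for 3 members (Eif4h, Eif5a2 and Eif4e3), while 16.5% of all genes passed that size. With library totals in place of normalization factors, the median of all genes shifted by -0.16 and 7 members were higher and 33 lower. In that setting 13097 of all genes were called, 39.1% of them higher, against 48% of 12395 with the factors. A longer gene tended to have a higher recovery. Over the 58 members the Pearson r with log2 gene length was 0.26 and the Spearman rho 0.32. Over all genes they were 0.23 and 0.29, all measured in the same libraries.

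**Figure D1:**
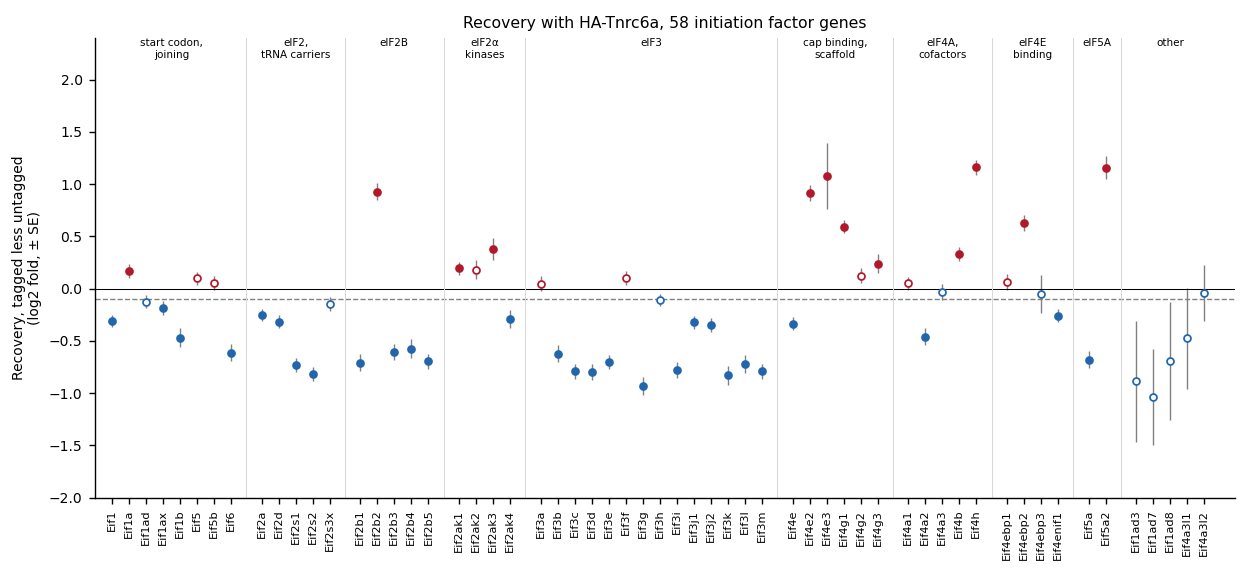
Recovery with HA-Tnrc6a relative to untagged cells for each of the 58 initiation factor genes, grouped by role on the x axis. Points are log2 differences of IP over input with their standard errors, filled where the adjusted p is under 0.05, red above and blue below 0, and the dashed line is the median of all genes tested at -0.10. The eIF3 genes lie mostly below the dashed line and Eif4h, Eif4e2, Eif5a2 and Eif2b2 near 1.

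Eif4h encodes a cofactor that stimulates the eIF4A helicase. Its mRNA was at 442 to 582 CPM (median 526) in the HA-Tnrc6a IPs and at 263 to 276 CPM (median 267) in their inputs, against 213 to 243 CPM (median 234) in untagged IPs and 249.5 to 279 CPM (median 268) in untagged inputs. All 6 tagged IPs lay above all other libraries of these cells, and the recovery was 1.16 ± 0.072 (edgeR adjusted p = 6.15e-16). The related cofactor gene Eif4b had a recovery of 0.33 ± 0.072, but it was also retained by beads from untagged cells (below). Of the helicases themselves, Eif4a1 (0.052 ± 0.063) and Eif4a3 (-0.033 ± 0.074) did not pass the test. Eif4a2, the paralog named in microRNA-mediated repression, was lower, at -0.46 ± 0.082. In tagged cells its IPs, at a median of 756 CPM, were nevertheless above its inputs, at a median of 549 CPM. Beads from untagged cells retained it more strongly still (below). Its locus overlaps Rfc4 and several snoRNA genes in RefSeq, and since whether strand was used in counting is not given in the sources used here, reads of overlapping genes cannot be told apart.

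Eif4e2, whose protein binds the cap without supporting initiation, had the largest rise of the cap-binding genes with an average log2 CPM of at least 3. Its mRNA was at 504 to 653 CPM (median 596) in tagged IPs and 321 to 340.4 CPM (median 326) in tagged inputs. In untagged cells it was at 264 to 385 CPM (median 308) in IPs and 294 to 403 CPM (median 321) in inputs, so every tagged IP exceeded every other library of both genotypes, and the recovery was 0.91 ± 0.076 (edgeR adjusted p = 1.36e-12). Eif4e moved the other way, with a recovery of -0.34 ± 0.061 (adjusted p = 1.37e-05, edgeR). The scaffold gene Eif4g1 lay at 816 to 1289 CPM (median 1006) in tagged IPs and 506 to 857 CPM (median 679.5) in untagged IPs, ranges that overlap. The inputs were at 410.3 to 614 CPM (median 533) and 438 to 617 CPM (median 513); the tagged IPs lay above all of them and the untagged IPs overlapped them. Its recovery was 0.59 ± 0.062 (edgeR adjusted p = 3.46e-10). Eif4g3 had a recovery of 0.24 ± 0.090, a call that was lost without untagged IP 2 (0.20). Its tagged IPs at 15.9 to 23.8 CPM (median 20.3) were mostly below the untagged IPs at 22.3 to 27.4 CPM (median 24.8), as the tagged inputs were below the untagged inputs, and compared as IPs alone the direction turned, to -0.27 (edgeR adjusted p = 0.00215). Eif4g2, which encodes a scaffold that lacks the eIF4E site, was at 0.12 ± 0.070 and did not pass. The low-count gene Eif4e3 rose by 1.08 ± 0.32.

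The genes for the proteins that hold back eIF4E did not move together. Eif4ebp2 was at 167 to 199 CPM (median 194) in the tagged IPs against 102 to 136 CPM (median 127) in the untagged IPs, without overlap, from inputs of 143 to 174 CPM (median 156) and 137 to 183 CPM (median 159). Its recovery was 0.63 ± 0.073 (edgeR adjusted p = 3.46e-09). Eif4ebp1 (0.063 ± 0.076) and Eif4ebp3 (-0.053 ± 0.18) did not pass the test, and Eif4enif1, which overlaps Sfi1, was lower, at -0.26 ± 0.063.

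The subunits of eIF3 formed the largest group that fell, 11 lower, 0 higher and 3 not called, with a median of -0.71. DESeq2 called 12 of them lower and 0 higher, and 0 were higher by edgeR at an unadjusted p under 0.05. Eif3g, an RNA-binding subunit, was at 92.7 to 122 CPM (median 110.0) in tagged IPs and 193 to 217 CPM (median 207) in tagged inputs, while untagged IPs held 186 to 269 CPM (median 204) and untagged inputs 195 to 233 CPM (median 203). The tagged IPs were below all 18 other libraries, and the recovery was -0.94 ± 0.087 (edgeR adjusted p = 2.18e-11). Eif3m was at 76.4 to 111 CPM (median 90.7) in tagged IPs and 143 to 202 CPM (median 168) in untagged IPs, with inputs of 164 to 199 CPM (median 184) and 163 to 235 CPM (median 185), and its recovery was -0.79 ± 0.072. The locus of Eif3m overlaps Ccdc73. Eif3d (-0.80 ± 0.079), the subunit that can itself bind a cap, and Eif3k (-0.83 ± 0.090) were similar in size. The near-identical Eif3j1 and Eif3j2, between which reads may be split, were at -0.32 ± 0.064 and -0.35 ± 0.066. Their loci overlap Spg11 and Gm3650.

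Against this group stood Eif3a, Eif3f and Eif3h, whose recoveries of 0.047 ± 0.071, 0.099 ± 0.066 and -0.11 ± 0.058 did not pass; they are named as the exceptions. Eif3f was at 217 to 252 CPM (median 234) in tagged IPs and 225 to 266 CPM (median 240.2) in untagged IPs, from inputs of 261 to 302 CPM (median 292) and 294 to 359 CPM (median 314), so the IPs of both genotypes overlapped, and each lay below the inputs of its own genotype.

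The first bases of the transcript are printed for 5 members, both that begin with a run of pyrimidines and 3 of those lower in recovery as examples without one. A start of C followed only by pyrimidines is the hallmark of the TOP mRNAs, a class of growth-regulated transcripts rich in translation factors. RefSeq start windows (GRCm38.p6) were found for 43 of the 58 members, 6 of them with more than 1 start. Each line holds 10 bases before and 20 bases from the annotated start, 5′ to 3′, and capitals mark the unbroken pyrimidines that begin at the start.
Eif3f: tctaggctctCTCTCTTTCTCggcaagatg
Eif2s3x: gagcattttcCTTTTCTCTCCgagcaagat
Eif3g: acccgggctgggagctgcgtggagttaaga
Eif3m: cggtcggcgtgtttctggatcggagcgtct
Eif2s1: ggttgggcgaagcgcacgctgaggagcttc
These lie at chr7:108934405-108934434 (plus strand), chrX:94212632-94212661 (minus strand), chr9:20898571-20898600 (minus strand), chr2:105017008-105017037 (minus strand) and chr12:78862062-78862091 (plus strand). Eif3f and Eif2s3x each begin with 11 pyrimidines, and both had a recovery that did not pass the test (0.099 ± 0.066 and -0.15 ± 0.070). The other 3 begin with no such run. Over all windows, 2.51% (823 of 32851) have C first and only C or T in the first 5 bases, against 2 of the 56 member windows, or 3.57%, which are those of Eif3f and Eif2s3x. By member, 0 of the 10 higher in recovery, 0 of the 23 lower and 2 of the 10 not called hold it, so most members of every kind lack it. A start that lacks these letters says only that they are not at the annotated position.

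Of the eIF2 subunits and other initiator tRNA carriers 4 of 5 were lower, and of the eIF2B subunits 4 of 5. Eif2s2, the beta subunit of eIF2, was at 575 to 705 CPM (median 665) in tagged IPs, below its inputs at 715 to 906 CPM (median 807), whereas in untagged cells the IPs at 1175 to 1449 CPM (median 1241) were above the inputs at 859 to 898 CPM (median 879). Its recovery, which combines both, was -0.82 ± 0.069 (edgeR adjusted p = 1.82e-12). Eif2s1, the alpha subunit that the stress kinases phosphorylate, was at 133 to 176 CPM (median 148) in tagged IPs and 203 to 309 CPM (median 253) in untagged IPs, without overlap, with inputs of 283 to 306 CPM (median 294) and 258 to 329.8 CPM (median 282). The recovery was -0.73 ± 0.071 (edgeR adjusted p = 6.67e-11). Eif2a (-0.25 ± 0.060) and Eif2d (-0.32 ± 0.063), which encode other carriers of initiator tRNA, were also lower, and they overlap Serp1 and Rassf5. For Eif2a the log2 ratio of IP to input was 0.18 and 0.039 in the sets of tagged libraries. In untagged cells it was 0.35 and 0.40.

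Of the eIF2B genes, Eif2b1, Eif2b3, Eif2b4 and Eif2b5 fell by 0.71, 0.61, 0.58 and 0.69 on the log2 scale, and Eif2b2 rose. Eif2b2 was at 83.4 to 101 CPM (median 89.9) in tagged IPs and 47.7 to 58.5 CPM (median 50.9) in tagged inputs, against 44.5 to 54.2 CPM (median 45.9) and 43.4 to 65.6 CPM (median 49.6) in untagged cells. All tagged IPs were above the other libraries, and the recovery was 0.93 ± 0.078 (edgeR adjusted p = 1.9e-12). The subunits of this one complex spanned recoveries from -0.71 to 0.93.

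The kinases of eIF2 alpha gave 2 higher (Eif2ak3 and Eif2ak1, 0.38 ± 0.10 and 0.19 ± 0.066) and 1 lower (Eif2ak4, the amino acid sensor GCN2, -0.29 ± 0.086). The log2 ratio of IP to input of Eif2ak1 was -0.15 in each set of tagged libraries. In untagged cells it was -0.37 and -0.29. Start codon and joining factors were 1 higher and 4 lower of 8, with Eif6, which keeps ribosomal subunits apart, at -0.61 ± 0.082. The 2 eIF5A genes went opposite ways. Eif5a2, the rarely expressed paralog, was at 29.3 to 43.2 CPM (median 34.6) in tagged IPs and 13.6 to 21.3 CPM (median 16.8) in untagged IPs, without overlap, from inputs of 14.4 to 18.7 CPM (median 16.7) and 14.3 to 21.4 CPM (median 17.4), a recovery of 1.16 ± 0.11 (edgeR adjusted p = 3.98e-11). Eif5a, which overlaps Gps2, fell by 0.68 ± 0.079. Beyond the members, a list of 24 partners and regulators of initiation gave 8 higher and 12 lower, from -0.75 for Mcts2 to 3.07 for Mknk2, an eIF4E kinase gene. A list of 15 elongation and release factors gave 4 higher and 6 lower. Over all genes tested 29.8% were higher and 32.2% lower.

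**Figure D2:**
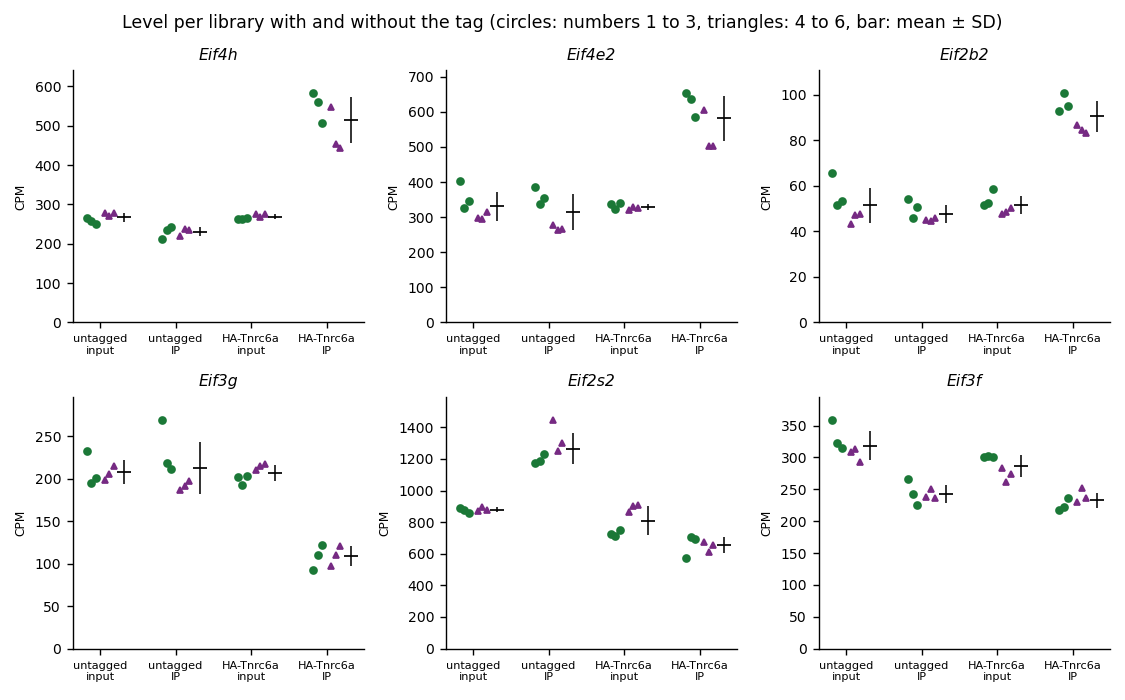
Level in CPM (y axis, from 0) of 6 initiation factor genes in each input and IP library of untagged and HA-Tnrc6a cells. Circles are numbers 1 to 3, triangles numbers 4 to 6, and bars the mean with SD over 6 libraries. Eif4h, Eif4e2 and Eif2b2 are highest in the tagged IPs, Eif3g and Eif2s2 are lowest there, and Eif3f is at like levels in the IPs of both genotypes.

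Beads alone kept some of these mRNAs, as the ratio of IP to input in untagged cells showed. Here 10 members were higher and 18 lower, 17.2% and 31% of the members, beside 18% and 17.8% of the 19299 genes tested. Eif4a2 was the highest, at 1009.8 to 1342 CPM (median 1122) in untagged IPs and 539 to 690.3 CPM (median 602) in their inputs (0.92 ± 0.058, edgeR adjusted p = 1.65e-10). Eif4b (0.72 ± 0.048), Eif2s2 (0.52 ± 0.043), Eif4g1 (0.37 ± 0.043) and Eif2a (0.37 ± 0.045) were also higher. The low-count Eif4ebp3 (0.50 ± 0.17) kept its call in 4 of 12 refits without 1 library, with values from 0.23 to 0.60, the lowest without untagged IP 1. Lower were Eif3f (-0.40 ± 0.050), Eif4g2 (-0.38 ± 0.054), Eif4ebp2 (-0.36 ± 0.053), Eif2ak1 (-0.34 ± 0.051) and Eif5a (-0.31 ± 0.047). Of the genes that led the recovery with the tag, Eif4h was lower on these beads (-0.22 ± 0.044) and Eif4e2 (-0.089 ± 0.052) and Eif2b2 (-0.11 ± 0.064) did not pass. Between the 2 sets of libraries, 2 members differed in this ratio past the threshold (Eif2s1 and Eif5a), as did 2.86% of all genes. With library totals the median of all genes shifted by -0.17 and the members split into 5 higher and 35 lower. In that setting 9556 of all genes were called, 20.9% of them higher, against 50.3% of 6892 with the factors.

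In Ago2-/- cells the recovery of initiation factor mRNAs with Tnrc6a was changed for 21 of 58 members, 6 higher and 15 lower than in HA-Tnrc6a cells, where 9.09% of 19995 genes were higher and 12.3% lower (10.3% and 25.9% of members). Of the 14 eIF3 genes 7 were lower, and 4 of 5 genes of eIF2 and other tRNA carriers were lower. The inhibitors of eIF4E stood apart, with Eif4ebp1, Eif4ebp3 and Eif4enif1 higher and Eif4ebp2 lower. All of these differences were under 0.5 on the log2 scale, and the member median was -0.10 against -0.04 over all genes. This comparison and the recovery with the tag (HA-Tnrc6a over untagged cells) share the HA-Tnrc6a libraries, so those values and these are not independent.

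**Figure D3:**
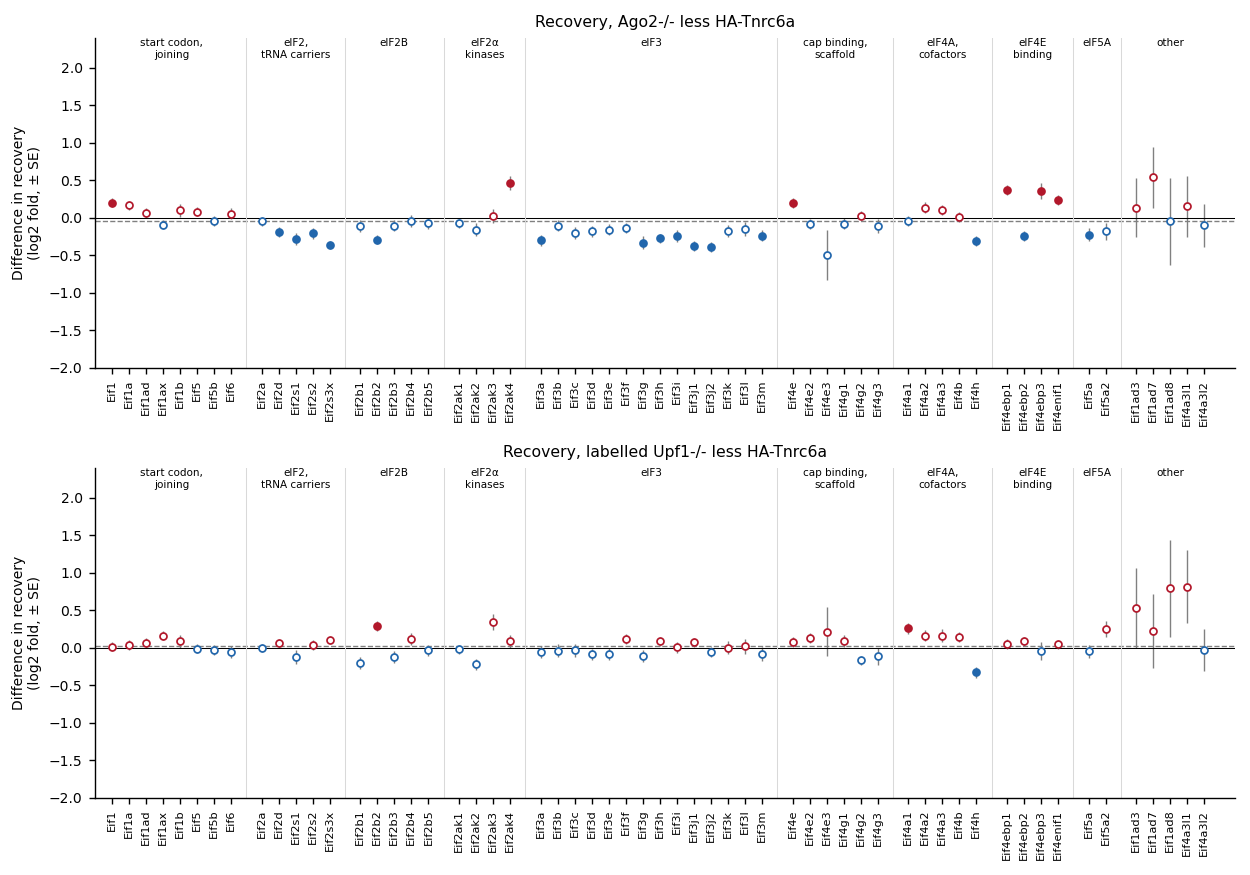
Difference in recovery from HA-Tnrc6a cells for Ago2-/- cells (top) and cells labelled Upf1-/- (bottom), per initiation factor gene and grouped by role. Points are log2 differences with standard errors, filled where the adjusted p is under 0.05, and the dashed line is the median of all genes tested. The top panel has 21 filled points and the bottom panel 3.

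Eif2ak4 had the largest rise. The mRNA of this amino acid sensor was at 27.1 to 38.2 CPM (median 31.0) in Ago2-/- IPs against 18.5 to 25.5 CPM (median 22.5) in HA-Tnrc6a IPs, without overlap, and at 27.5 to 29.8 CPM (median 29.0) and 25.5 to 31.3 CPM (median 27.8) in the inputs. The difference in recovery was 0.46 ± 0.090 (edgeR adjusted p = 0.000198). Eif4ebp1, the main target of mTOR among the binding proteins, was at 236 to 348 CPM (median 289) and 184 to 251 CPM (median 222) in the same IPs, which overlap, from inputs of 225 to 247 CPM (median 239) and 221 to 264 CPM (median 235). Its recovery rose by 0.37 ± 0.067 (edgeR adjusted p = 6.15e-05). Eif4ebp3 (0.36 ± 0.11), Eif4enif1 (0.23 ± 0.063) and the start codon factor gene Eif1 (0.20 ± 0.063) were higher too, as was Eif4e (0.20 ± 0.066), whose call was lost in 4 of 24 fits that left out 1 library: without HA-Tnrc6a input 3 or 6, Ago2-/- input 2 or Ago2-/- IP 1, with values over all 24 fits from 0.17 to 0.23.

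Among the genes that were lower, Eif3j1 was at 49.6 to 56.5 CPM (median 50.9) in Ago2-/- IPs and 63.7 to 72.5 CPM (median 66.8) in HA-Tnrc6a IPs, without overlap, while the inputs of 69.9 to 85.3 CPM (median 78.3) and 70.9 to 84.4 CPM (median 78.0) overlapped. The difference was -0.38 ± 0.067 (edgeR adjusted p = 5.43e-05), and its near-copy Eif3j2 was at -0.39 ± 0.068. Eif2s3x, the gamma subunit of eIF2, was at 118 to 140.4 CPM (median 129) in Ago2-/- IPs and 151 to 184 CPM (median 164) in HA-Tnrc6a IPs, again without overlap (-0.36 ± 0.055, edgeR adjusted p = 4.39e-06), from inputs of 197 to 236 CPM (median 214) and 190.1 to 244 CPM (median 213). Its start is 1 of the 2 with a pyrimidine run printed above.

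Of the genes with high recovery with the tag, which the shared HA-Tnrc6a libraries helped to pick out, Eif4h and Eif4ebp2 were lower in Ago2-/- cells. Eif4h was at 374 to 449.8 CPM (median 395) in Ago2-/- IPs from inputs of 251 to 266 CPM (median 260.5), and its recovery was lower, at -0.31 ± 0.071 (adjusted p = 0.00129, edgeR). Its Ago2-/- IPs nevertheless stayed above every untagged library. Eif4ebp2 was at 131 to 157 CPM (median 141) in Ago2-/- IPs, all below the HA-Tnrc6a IPs, with a difference of -0.24 ± 0.065. Eif4e2 (-0.085 ± 0.073), Eif4g1 (-0.080 ± 0.071) and Eif5a2 (-0.18 ± 0.12) did not pass. Eif2b2, at -0.29 ± 0.064 over both sets, differed between the sets of libraries, with -0.59 in numbers 1 to 3 and 0.0090 in numbers 4 to 6. It was the only member to do so past the threshold, and 0.195% of all genes did. Of the 24 partners of initiation outside the family 4 were higher and 7 lower. Mknk2 was at -0.95 ± 0.086 and Ppp1r15a, whose product undoes eIF2 alpha phosphorylation, at 0.60 ± 0.071. Of the 15 elongation and release factors 1 was higher and 2 were lower. Over all genes tested 9.09% were higher and 12.3% lower.

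In cells labelled Upf1-/-, recovery differed from HA-Tnrc6a cells for 3 members, 2 higher and 1 lower, where 2.92% of 19966 genes were higher and 1.57% lower. The members' shares of 3.45% and 1.72% were near that background. This comparison shares the HA-Tnrc6a libraries with the recovery with the tag and with the Ago2-/- comparison, so their values are not independent. Eif2b2 was at 102 to 136 CPM (median 130.0) in these IPs, all above the HA-Tnrc6a IPs, from inputs of 56.3 to 66.3 CPM (median 59.5), and its recovery was higher by 0.29 ± 0.071 (edgeR adjusted p = 0.0112). Without 1 or another of 8 of the 24 libraries, this call was lost (values from 0.21 to 0.32). Eif4a1 was higher by 0.26 ± 0.072 (edgeR adjusted p = 0.0338), a call lost in 22 of 24 such fits (0.17 to 0.26). Its IPs were at 1270.4 to 1640.0 CPM (median 1513) against 1490.2 to 1889.6 CPM (median 1794), with overlap, and as IPs alone the direction turned, to -0.22 (edgeR adjusted p = 0.0201). Eif4h was lower, at -0.33 ± 0.076 (adjusted p = 0.00787, edgeR), although its IPs at 544 to 720.4 CPM (median 561) overlapped or exceeded the HA-Tnrc6a IPs. Its inputs were higher too, at 369.9 to 426 CPM (median 403), and as IPs alone its direction turned, to 0.21 (edgeR adjusted p = 0.0292). The eIF3 genes gave 0 higher and 0 lower in this comparison by edgeR and by DESeq2, with 0 higher and 0 lower at an unadjusted p under 0.05, a median of -0.039 and values from -0.11 to 0.12. Compared as IPs alone, without the inputs, 7 members were higher and 27 lower, where 8805 genes were called, 49.6% of them higher. Of the 27 lower, 11 were eIF3 genes. Most eIF3 genes were also lower in the inputs (below), and the part of input level in the IPs was not tested. With library totals 0 members were higher and 4 lower, where 1002 genes were called, 22.4% of them higher, against 65.1% of 896 in the main fit.

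Set against each other, Ago2-/- and Upf1-/- labelled cells differed in the recovery of 23 members, 6 higher and 17 lower in Ago2-/- cells, where 10.9% of 19962 genes were higher and 13.5% lower (10.3% and 29.3% of members). The widest gap was in Eif2b2, at 69.9 to 97.8 CPM (median 80.0) in Ago2-/- IPs and 102 to 136 CPM (median 130.0) in the others, without overlap (-0.56 ± 0.069, edgeR adjusted p = 3.16e-08). Eif2s3x (-0.44 ± 0.056), Eif3j1 (-0.43 ± 0.070), Eif5a2 (-0.41 ± 0.11) and Eif3h (-0.34 ± 0.062) were lower as well. Eif4ebp3 (0.42 ± 0.11), Eif2ak4 (0.40 ± 0.095), Eif4ebp1 (0.34 ± 0.066), Eif4g2 (0.21 ± 0.056) and Eif4enif1 (0.21 ± 0.064) were higher. Eif4e2 (-0.19 ± 0.070) lost its call in 19 of 24 fits with 1 library left out, with values from -0.22 to -0.099, nearest to 0 without IP 4 of cells labelled Upf1-/- (-0.099) and without Ago2-/- IP 2 (-0.13). Of the eIF3 genes 7 were lower. The split changed with library totals to 10 members higher and 8 lower, with 3 eIF3 genes lower. There 5114 of all genes were called, 63.4% of them higher, against 44.6% of 4878 in the main fit. As IPs alone, without inputs, 23 members were higher and 11 lower, with 4 eIF3 genes higher and 2 lower. In that setting 10794 of all genes were called, 47.4% of them higher. The direction of Eif4e2 turned there, to 0.21 (edgeR adjusted p = 0.00843), and Eif4ebp1 was at -0.063 (edgeR adjusted p = 0.395).

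The inputs show the mRNA levels themselves. A change in level in these bulk lysates does not separate fewer cells of a kind from less RNA per cell. In the inputs labelled Upf1-/-, 13 of 57 members were higher and 34 lower than in HA-Tnrc6a inputs, where 29.5% of 19444 genes were higher and 29% lower (22.8% and 59.6% of members). Of the 14 eIF3 genes 13 were lower (median -0.23), Eif3a being the exception at 0.016 ± 0.032, and the helicase genes Eif4a1 and Eif4a3 and the cap-binding genes Eif4e and Eif4e2 were lower, while Eif4a2, Eif4h and Eif4ebp1 were higher. The member median was -0.14, against -0.02 over all genes. The 24 partners gave 8 higher and 10 lower, and the 15 elongation and release factors 4 higher and 8 lower.

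The eIF4A paralogs moved in opposite directions. Eif4a2 was at 868 to 1214 CPM (median 1039.6) in inputs labelled Upf1-/- against 471 to 621 CPM (median 549) in HA-Tnrc6a inputs, without overlap, a difference of 0.93 ± 0.021 (edgeR adjusted p = 8.92e-36). Its overlap with Rfc4 and snoRNA genes applies here too. Eif4a1 was at 1259.9 to 1297 CPM (median 1278) against 1676 to 1826 CPM (median 1726) (-0.44 ± 0.020, edgeR adjusted p = 5.19e-24), and Eif4a3, which encodes the helicase of the exon junction complex, a cofactor of nonsense-mediated decay, at 154 to 170.0 CPM (median 159) against 207 to 218 CPM (median 212) (-0.40 ± 0.025, edgeR adjusted p = 4.73e-19). Neither pair of ranges overlapped.

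Other genes that were higher in these inputs included Eif4h, at 369.9 to 426 CPM (median 403) against 263 to 276 CPM (median 267), without overlap (0.58 ± 0.022, edgeR adjusted p = 7e-27). Eif4ebp1 was at 292 to 357 CPM (median 312) against 221 to 264 CPM (median 235), also without overlap (0.43 ± 0.024, edgeR adjusted p = 2.11e-20). Eif2b1 was at 77.9 to 84.6 CPM (median 80.8) against 58.7 to 72.0 CPM (median 62.6) and Eif2ak2, the double-stranded RNA sensor PKR, was higher by 0.30 ± 0.046. For Eif2b1 the difference was 0.34 ± 0.031, larger in numbers 1 to 3 (0.46) than in numbers 4 to 6 (0.23).

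**Figure D4:**
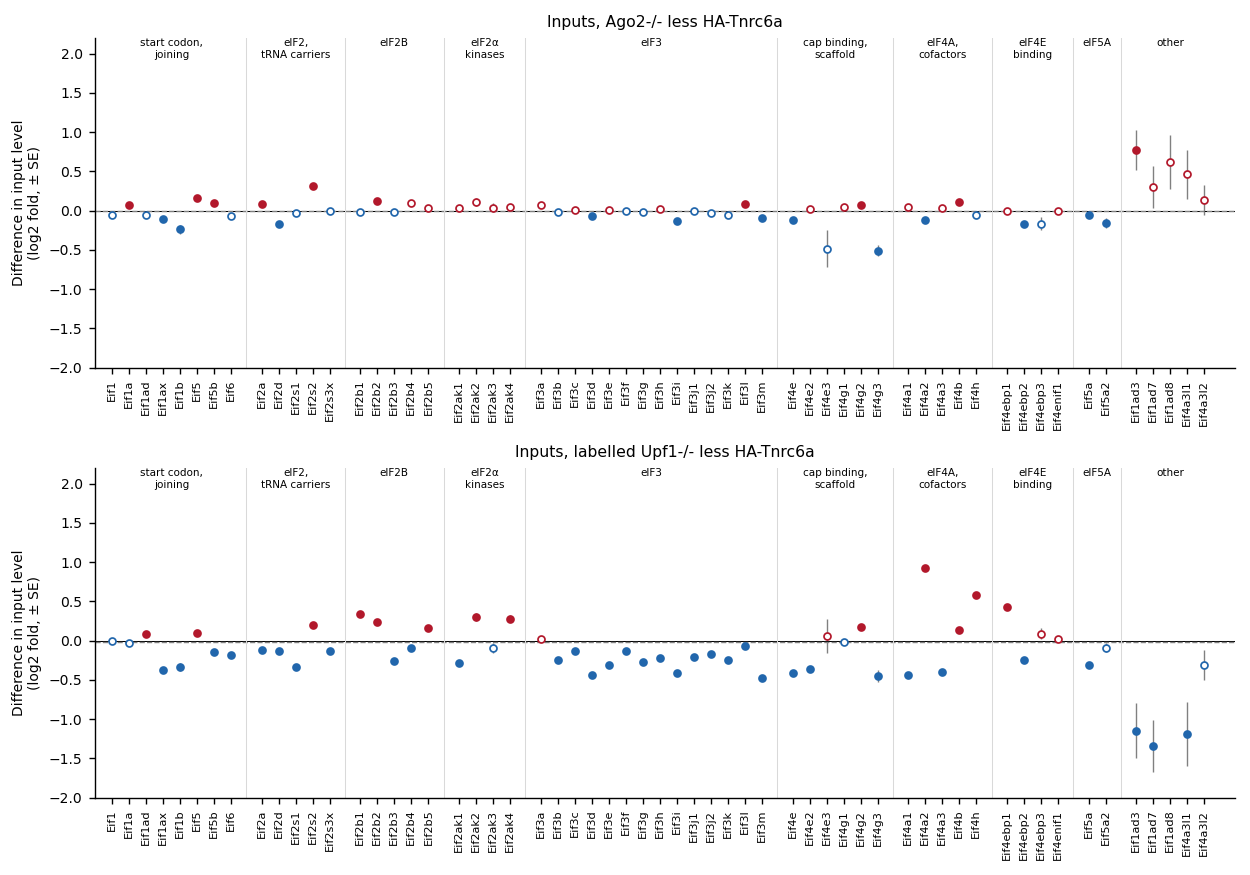
Difference in input level from HA-Tnrc6a cells for Ago2-/- cells (top) and cells labelled Upf1-/- (bottom), per initiation factor gene and grouped by role. Points are log2 differences with standard errors, filled where the adjusted p is under 0.05, and the dashed line is the median of all genes tested. Eif4a2 stands at 0.93 in the bottom panel, where 13 of the 14 eIF3 genes are filled and below 0 and Eif1ad8 was not tested.

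On the lower side Eif3m was at 117 to 146 CPM (median 129) against 164 to 199 CPM (median 184) (-0.48 ± 0.025, edgeR adjusted p = 5.75e-22) and Eif3d at 262 to 276 CPM (median 269) against 359 to 374 CPM (median 365) (-0.44 ± 0.022, edgeR adjusted p = 1.48e-22), both without overlap. Eif3i followed with -0.41 ± 0.026. Eif4e was at 127 to 162 CPM (median 146) against 175 to 214 CPM (median 192) (-0.41 ± 0.024), Eif4e2 at 245 to 266 CPM (median 255) against 321 to 340.4 CPM (median 326) (-0.37 ± 0.022), and Eif2s1 at 223 to 246 CPM (median 231) against 283 to 306 CPM (median 294) (-0.34 ± 0.024). All 3 pairs were free of overlap. Eif4g3, at 6.55 to 15.3 CPM (median 12.1) against 12.3 to 18.5 CPM (median 14.4), was lower, at -0.45 ± 0.076 with overlapping ranges. Eif4g2 was higher (0.17 ± 0.020), Eif4ebp2 lower (-0.25 ± 0.027), and Eif4g1 (-0.021 ± 0.032) and Eif4enif1 (0.018 ± 0.028) did not pass. The low-count genes Eif1ad3, Eif1ad7 and Eif4a3l1 were lower, from -1.35 to -1.15, at medians under 1 CPM. Between sets, 6 of 57 members differed, as did 11.6% of all genes.

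In Ago2-/- inputs changes were smaller, 10 members higher and 12 lower, 17.2% and 20.7% of the members beside 15.7% and 15.2% of the 19641 genes tested. Eif2s2 was at 984 to 1059.8 CPM (median 988) against 715 to 906 CPM (median 807) in HA-Tnrc6a inputs, without overlap (0.31 ± 0.024, edgeR adjusted p = 1.96e-14), and the rise was larger in numbers 1 to 3 (0.48) than in numbers 4 to 6 (0.14). Eif4g3 was at 8.99 to 11.8 CPM (median 10.5) against 12.3 to 18.5 CPM (median 14.4), also without overlap, and lower, at -0.51 ± 0.066 (adjusted p = 3.75e-08, edgeR). The low-count Eif1ad3 was at 0.78 ± 0.26. The other changes were smaller: Eif1b (-0.24 ± 0.053), Eif4ebp2 (-0.17 ± 0.028), Eif2d (-0.17 ± 0.028) and Eif3i (-0.13 ± 0.025) were lower and Eif2b2 (0.12 ± 0.036), Eif4b (0.11 ± 0.024) and Eif2a (0.087 ± 0.027) higher. Eif5 was at 0.16 ± 0.024 as a mean over both sets, but it did not have the same sign in each set. Eif5b (0.092 ± 0.031) lost its call in 3 of 12 fits that left out 1 library. Eif4a1 (0.049 ± 0.022), Eif4a3 (0.037 ± 0.024), Eif4e2 (0.020 ± 0.024) and Eif2s1 (-0.032 ± 0.026) did not pass. Of the eIF3 genes 1 was higher and 3 were lower. In all, 4 of 58 members differed between sets, beside 5.94% of all genes. Fitted with all 48 libraries, 2 members were higher and 4 lower, where 3902 genes were called, 51.2% of them higher. With library totals the members were 8 and 16, where 5968 genes were called, 46% of them higher.

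Ago2-/- inputs held more of 38 members and less of 11 than inputs labelled Upf1-/-, where 31.4% of 19419 genes were higher and 30.9% lower (65.5% and 19% of members). Eif4a2 lay at 426 to 574 CPM (median 512) in Ago2-/- inputs and was lower, at -1.04 ± 0.024. Eif4a1 (0.49 ± 0.022), Eif4a3 (0.44 ± 0.027), Eif4e2 (0.39 ± 0.025), Eif3m (0.39 ± 0.027) and Eif3d (0.37 ± 0.025) were higher, and Eif4h (-0.63 ± 0.025), Eif4ebp1 (-0.42 ± 0.026), Eif2b1 (-0.36 ± 0.033) and Eif4ebp3 (-0.25 ± 0.076) lower. Of the eIF3 genes 13 were higher. The 5 low-count genes Eif1ad3, Eif1ad7, Eif1ad8, Eif4a3l1 and Eif4a3l2 were higher by 0.46 to 2.07, at medians of no more than 1.64 CPM in Ago2-/- inputs, and such values depend on the prior count. The members that differed between sets numbered 9 of 58, with 13.1% of all genes. With library totals 31 members were higher and 16 lower, where 12015 genes were called, 42.3% of them higher.

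**Figure D5:**
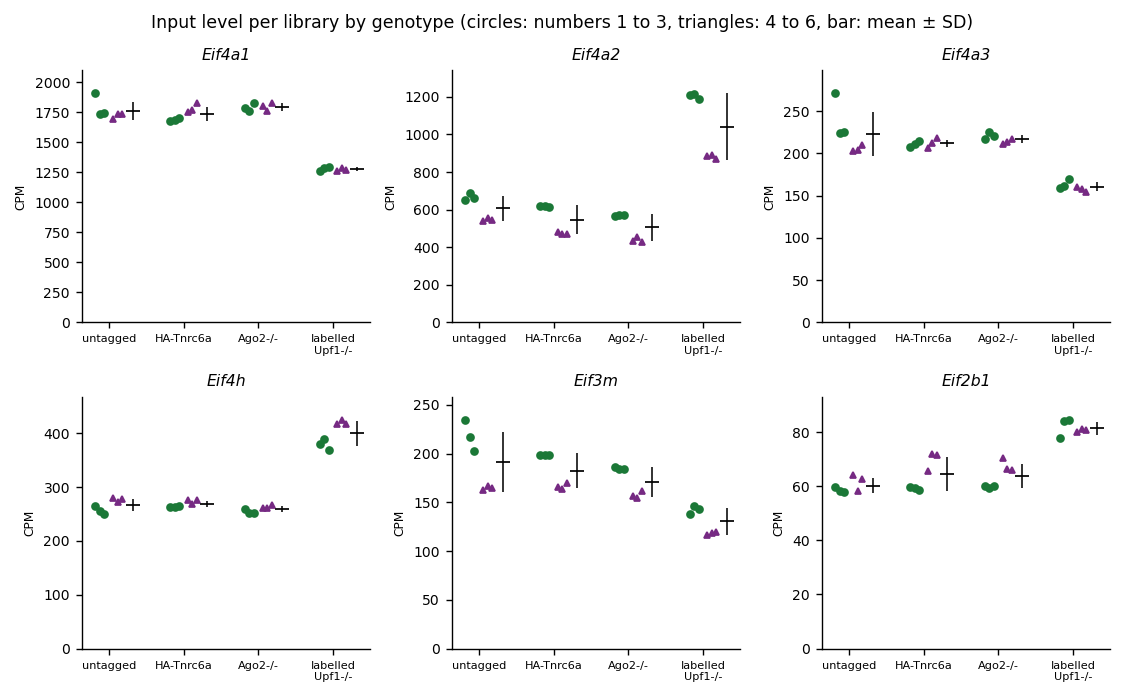
Input level in CPM (y axis, from 0) of Eif4a1, Eif4a2, Eif4a3, Eif4h, Eif3m and Eif2b1 in each library of the 4 genotypes. Circles are numbers 1 to 3, triangles numbers 4 to 6, and bars the mean with SD over 6 libraries. In cells labelled Upf1-/- Eif4a2, Eif4h and Eif2b1 sit above all HA-Tnrc6a libraries and Eif4a1, Eif4a3 and Eif3m below them.

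The tag itself went with few changes in the inputs. Against untagged inputs 3 of 57 members were higher and 8 lower in HA-Tnrc6a inputs, where 7.74% of 19407 genes were higher and 7.67% lower (5.26% and 14% of members). Eif4g3 was at 12.3 to 18.5 CPM (median 14.4) against 19.4 to 22.5 CPM (median 21.5) in untagged inputs, without overlap, and lower, at -0.52 ± 0.059 (adjusted p = 3.1e-07, edgeR), more in numbers 1 to 3 (-0.76) than in numbers 4 to 6 (-0.28). Eif2ak4 (-0.23 ± 0.050), Eif4b (-0.17 ± 0.031), Eif4a2 (-0.15 ± 0.030) and Eif3f (-0.15 ± 0.034) were lower by less. Eif1ad (0.11 ± 0.035) and Eif3j1 (0.10 ± 0.033) were higher, but lost the call in 7 and 11 of the 12 fits that left out 1 library. Across genotypes Eif4g3 stood at medians of 10.5 CPM in Ago2-/- and 12.1 CPM in Upf1-/- labelled inputs, 14.4 CPM in HA-Tnrc6a and 21.5 CPM in untagged inputs, and only the untagged inputs lay clear of all the others. Between sets 2 of 57 members differed, beside 3.4% of all genes. Numbers 1 to 3 alone gave 0 members higher and 4 lower, where 652 of all genes were called, 65.8% of them higher. Numbers 4 to 6 alone gave 12 higher and 5 lower, where 4193 genes were called, 48.4% of them higher. Fitted with all 48 libraries, 1 member was higher and 4 lower, where 1937 genes were called, 54.6% of them higher.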

How the data were processed

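RNA was measured by sequencing of stranded total RNA libraries from 24 inputs and 24 IPs. The deposited table holds whole-number read counts per gene, used here as given; per the submitters' processing notes, base calls were made with bcl2fastq 2.20 and reads aligned with STAR 2.7.3a to GRCm38 (mm10), and a header names QuasR for gene length. The counting program's settings, strand included, are not given in the sources used here. Besides the overlaps named above, Eif2ak1 (Ankrd61 and Aimp2), Eif2ak2 (Gm26637), Eif5b (Rev1), Eif1ad (Banf1) and Eif4e3 (Gpr27) overlap protein-coding genes in RefSeq. The 48 columns of scaled values beside the counts were not used. Depth is 11471544 to 73845953 counts per library.

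Each comparison was fitted on all genes with edgeR 4.0.16 (R 4.3.3): TMM factors, filterByExpr with a minimum count of 10, robust quasi-likelihood F-tests, 1 coefficient per genotype, fraction and set, contrasts averaged equally over both sets, and Benjamini-Hochberg adjustment with a threshold of 0.05. The standard error is the log2 fold change divided by the square root of F. Levels in CPM use TMM factors over all 48 libraries. On simulated counts the fit was tested with known changes. Named by rule were 12 fixed genes, and per comparison and direction up to 5 members with the largest change past the threshold, the same sign in both sets and a mean level of 3 or more in log2 CPM. Other members named complete a role group or a small count and were chosen after their values were seen. Members, role lists and partner lists were chosen with earlier results of these data known.

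Same-numbered libraries did not all deviate together: the mean correlation of their deviations was 0.068 (from -0.29 to 0.67, 168 pairs), and for IP and input of the same genotype and number 0.10 (from -0.061 to 0.51, 24 pairs). Since not every pair exceeded 0.1, numbers were not treated as pairs. This rule is strict and cannot exclude that some libraries are paired, so fits with a replicate block by number are given below. No 2 replicates agreed within sampling noise (chi-square per degree of freedom at least 1.96). Alternatives were RLE factors, library totals, no filter, DESeq2 1.42.0, each set alone, a replicate block, all 48 libraries in 1 fit, IPs without inputs, and leaving out each library. Start sequences are RefSeq's.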

Additional observations from a re-analysis of the deposited data

Results flagged for a closer look

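Differences between the 2 sets of libraries, given as numbers 4 to 6 less numbers 1 to 3 on the log2 scale and tested by edgeR's quasi-likelihood test with Benjamini-Hochberg adjustment, passed the threshold for 14 comparisons of named genes. In recovery, Eif2b2 was the case for Ago2-/- against HA-Tnrc6a cells, at 0.60 (adjusted p = 0.026). Eif2s2, the beta subunit of eIF2, appeared in 4 input comparisons: -0.34 for Ago2-/- against HA-Tnrc6a, -0.19 for labelled Upf1-/- against HA-Tnrc6a, -0.16 for Ago2-/- against labelled Upf1-/-, and 0.27 for HA-Tnrc6a against untagged. These comparisons share input libraries.

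Eif4g3 differed between sets by -0.57 for Ago2-/- against labelled Upf1-/- inputs and by 0.48 for HA-Tnrc6a against untagged inputs. In the first of these comparisons Eif5a2 was at -0.60 and Eif4g1 at -0.18. In Ago2-/- inputs against HA-Tnrc6a inputs Eif4b was at -0.15. In labelled Upf1-/- inputs against HA-Tnrc6a inputs Eif2b1 was at -0.24 and Eif4g2 at -0.14. In the bead background Eif5a was at -0.43 and Eif2s1 at -0.33.

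Single libraries stood far from the other 5 of their group in 5 of 176 sets of 6 values (22 genes in 8 groups), where chance alone gives about 1 in 20. Eif4h was at 720.4 CPM in IP 4 of cells labelled Upf1-/-, with the next library at 594. Eif5a2 was at 36.7 CPM in Ago2-/- IP 1, next to 28.5. Untagged library 1 held the other 3 cases: Eif4a1 at 1907 CPM in the input (next 1744), Eif4a3 at 271 CPM in the input (next 226) and Eif4a3 at 254 CPM in the IP (next 228).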

How the results depend on the processing

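Members past the threshold ranged over the fits that left out 1 library from 39 to 42 for recovery with the tag, 16 to 27 for Ago2-/- and 1 to 5 for labelled Upf1-/- against HA-Tnrc6a recovery, and 17 to 24 between those 2. For inputs the ranges were 18 to 26 (Ago2-/-), 46 to 47 (labelled Upf1-/-), 45 to 49 (between them) and 9 to 14 (tag), and 25 to 32 for beads. Counts over all genes in these fits are not given here. In labelled Upf1-/- recovery the count was 1 without HA-Tnrc6a input 3 or labelled Upf1-/- IP 3, and 5 without HA-Tnrc6a IP 4. With numbers 1 to 3 alone, members called were 8 (Ago2-/- recovery, of 1623 genes), 1 (labelled Upf1-/- recovery, 162 genes), 10 (recovery between them, 2667), 11 (Ago2-/- inputs, 3382), 4 (tag inputs, 652) and 9 (beads, 1972), from 3 libraries a group. With numbers 4 to 6 alone they were 14 (recovery between Ago2-/- and labelled Upf1-/-, 3707 genes) and 17 (tag inputs, 4193), and 384 genes were called in labelled Upf1-/- recovery. The fit of all 48 libraries called 6 members (3902 genes) in Ago2-/- inputs and 5 (1937 genes) in tag inputs. DESeq2 called 5 members (1048 genes) in labelled Upf1-/- recovery, and IPs without inputs 34 there (8805 genes). IPs without inputs called 7482 genes for Ago2-/- and 10794 between Ago2-/- and labelled Upf1-/- cells. All-gene counts with both sets were 4267, 896, 4878, 6065, 2990 and 6892 for these comparisons in the order Ago2-/-, labelled Upf1-/- and between-knockout recovery, Ago2-/- inputs, tag inputs and beads. With library totals, the share of called genes that were higher went from 65.1% to 22.4% in labelled Upf1-/- recovery, 44.6% to 63.4% in recovery between Ago2-/- and labelled Upf1-/- cells, and 50.3% to 20.9% for beads.

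Signs turned in 16 cases of named members that were called in the main fit, in the other setting or in both. Sign changes of members called in neither were not counted. As IPs without inputs, where differences in level are not removed by construction, these were Eif4g3 at -0.27 for the tag, Eif4ebp2 at -0.20, Eif4a3 at -0.28, Eif4e2 at -0.27, Eif4e at -0.38, Eif4a1 at -0.22 and Eif4h at 0.21 for labelled Upf1-/-, and Eif2s1 at 0.19, Eif4a3 at 0.42, Eif4e2 at 0.21, Eif4ebp1 at -0.063 and Eif4a1 at 0.23 between the knockouts. With numbers 4 to 6 alone Eif4g1 was at -0.012 (Ago2-/- against labelled Upf1-/- inputs) and Eif4ebp1 at 0.12 (tag inputs), and with library totals Eif4enif1 was at -0.15 and Eif4a3 at -0.15 (beads). The cause was not tested. For single named members, the fits leaving out 1 library gave the same outcome in 2720 cases, lost the call in 98 and gained it in 14. The other settings did so in 1249, 84 and 28. The same outcome means a call kept with its direction, or no call in either fit, whatever the sign.

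Under a replicate block by column number, members called were 40, 23, 3 and 23 for the recoveries in the order above, 30, 47, 50 and 12 for the inputs and 34 for beads. In the same order, counts over all genes were 12435, 4471, 1067 and 5101, then 6494, 11541, 12242 and 3350, and 8017. Without the block they were 12395, 4267, 896 and 4878, then 6065, 11388, 12104 and 2990, and 6892. Depth limits the low-count members Eif4e3, Eif1ad3, Eif1ad7, Eif1ad8, Eif4a3l1 and Eif4a3l2, and numbers 1 to 3 have the lower totals.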
